A study of Mus musculus with 8 samples.

Results

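The genes described here are those of the immunoglobulin constant regions and of the J chain, read in RNAseq libraries of FoxP3+ regulatory T cells (Treg) from the bone marrow (BM) and the spleen (SP). They were taken by name from the gene tables: the heavy chain genes Ighm (IgM), Ighd (IgD), Ighg1, Ighg2b, Ighg2c and Ighg3 (the IgG subclasses) and Igha (IgA), the light chain genes Igkc (kappa) and Iglc2 (lambda), and Igj, the J chain that joins IgM and IgA into polymers. Of the 10 genes, 8 were found by name and Igha by its Ensembl identifier, so that 9 of the 38215 genes in the tables were members. Ighd was not analysed here. The set was chosen because earlier results of these same libraries had shown differences in immunoglobulin transcripts between the tissues. Their difference between BM-Treg and SP-Treg is therefore a description, with no test.

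The series compared 4 BM-Treg with 4 SP-Treg libraries from naïve B6.FoxP3-GFP mice aged 12 weeks, in which cells that express FoxP3 carry a green fluorescent protein and can be sorted by it. The labels give the genotype as C57Bl/6 and no treatment for either group. BM-Treg replicates 1 to 3 were female and in batch 1, while BM-Treg replicate 4 and all SP-Treg replicates were male and in batch 3, so that sex and batch cannot be told apart, and both fall largely with tissue. The cells were a bulk sort. Fewer cells of another type and less RNA per cell of that type cannot be told apart in such libraries.

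B cells are the cells that make antibody. In a developing B cell the heavy chain V, D and J segments are joined upstream of Ighm, and a kappa or lambda light chain is joined later. Activated B cells can then replace Ighm by a downstream constant gene, which is class switching, and plasma cells secrete the product in large amounts with the J chain. Constant regions can also be transcribed without a joined V segment, as sterile transcripts, and such transcripts of the Ighm region are known in T cells.

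The depth of the libraries was between 12427136 and 21921252 expected counts (estimated read numbers per gene that need not be whole). CPM values here are counts divided by TMM library sizes, and, where genes are compared with each other, the deposited FPKM is used, which also divides by transcript length. Since 3 counts in a library correspond to between 0.135 and 0.252 CPM, lower values rest on almost no reads. The T cell and Treg markers were high in all libraries: the 12 genes on that list, among them Cd3e, Cd4 and Foxp3, summed to between 8943 and 11029 CPM in BM-Treg and between 9834 and 10580 CPM in SP-Treg. None of the 12 passed edgeR's quasi-likelihood test at an adjusted p of 0.05, while 2 had an unadjusted p below 0.05 and DESeq2 called 1. Il2ra, a receptor chain for interleukin-2, was called lower in BM-Treg without SP-Treg replicate 1 (edgeR adjusted p = 0.0208) and without SP-Treg replicate 2 (adjusted p = 0.047). SP-Treg replicate 2 stood apart: it held the highest level of 17 of the 18 genes on a B cell list, and results that rest on it are given with and without it. Erythroid genes also differed among the SP-Treg libraries, with a sum of 2.64 CPM in replicate 1 and between 189 and 457 CPM in the other replicates, against between 15.0 and 34.3 CPM in BM-Treg.

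The heavy chain constant genes lie in a row on the minus strand of chromosome 12 (GRCm38, positions as in the deposited tables). Ighm spans chr12:113418950-113422730, and the next genes start 61.5 kb (Ighg3), 92.2 kb (Ighg1), 115 kb (Ighg2b), 134 kb (Ighg2c) and 162 kb (Igha) downstream of its start. Igkc lies at chr6:70726435-70726757 on the plus strand, Iglc2 at chr16:19198401-19200351 and Igj at chr5:88520512-88527891, both on the minus strand. Ighm has a pair of ends, for secreted and for membrane IgM, and its transcripts are told apart by them. The 2 sequences below are from the GENCODE M21 transcripts (GRCm38). The lower case bases are the last 30 that both forms share in the fourth constant exon (chr12:113420929-113420958), and the capitals mark the secreted tail (chr12:113420870-113420928) or the first membrane exon (chr12:113418953-113419068).
Ighm secreted end: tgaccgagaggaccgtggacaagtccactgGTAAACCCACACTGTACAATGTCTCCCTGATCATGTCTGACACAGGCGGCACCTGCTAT
Ighm membrane end: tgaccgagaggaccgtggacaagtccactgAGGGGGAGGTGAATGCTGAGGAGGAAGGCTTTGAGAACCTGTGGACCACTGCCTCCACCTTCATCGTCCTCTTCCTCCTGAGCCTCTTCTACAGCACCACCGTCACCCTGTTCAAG

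The IgG subclasses differ most visibly in the hinge, the exon between the first and second constant domains. The hinges are shown because the counts below separate genes of one family. Capitals mark the hinge exon, and lower case the 12 bases of the exon on each side, in the same annotation and on the minus strand: Ighg3 at chr12:113360529-113360576, Ighg1 at chr12:113329844-113329882, Ighg2b at chr12:113307261-113307326 and Ighg2c at chr12:113288263-113288325.
Ighg3 hinge: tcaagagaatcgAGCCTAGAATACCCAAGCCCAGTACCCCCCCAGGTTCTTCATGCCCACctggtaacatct
Ighg1 hinge: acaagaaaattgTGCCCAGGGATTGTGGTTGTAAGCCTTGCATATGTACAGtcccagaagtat
Ighg2b hinge: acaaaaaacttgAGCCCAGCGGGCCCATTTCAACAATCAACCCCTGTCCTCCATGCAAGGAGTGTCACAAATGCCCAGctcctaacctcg
Ighg2c hinge: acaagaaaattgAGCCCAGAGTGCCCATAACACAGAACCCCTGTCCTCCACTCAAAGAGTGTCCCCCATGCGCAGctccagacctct

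The hinges are 48, 39, 66 and 63 bases long in that order. Over the first and last constant domain exons, aligned without gaps, the 6 pairs of subclasses were between 71.0% (Ighg3 and Ighg2c) and 81.7% (Ighg2b and Ighg2c) identical. Reads were 80 nt long, and of all windows of that length in the M21 transcripts of a member, none of Ighm, Ighg1, Ighg2c, Igha, Igkc, Iglc2 or Igj and at most 0.370% (Ighg3, shared with Ighg2b) were also in another member. Reads from the C57Bl/6 reference can thus be assigned to 1 of these genes almost everywhere. Windows were not compared with genes outside the set. Iglc3, a near copy of Iglc2, was not analysed here, so that the Iglc2 counts are uncertain.

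Ighm was among the most abundant transcripts of the Treg libraries of both tissues. It reached 2107, 2636, 2981 and 2713 CPM in BM-Treg replicates 1 to 4 and 2465, 3267, 2670 and 2507 CPM in SP-Treg replicates 1 to 4. The ranges overlap. The mean of 2609 ± 366 CPM in BM-Treg stood against 2727 ± 371 CPM for SP-Treg (SD, n = 4 each), and the log2 fold change (BM-Treg over SP-Treg, edgeR) was -0.08 with an SE of 0.13. Between 0.222% and 0.312% of all expected counts of a library fell on Ighm. By FPKM it ranked between 9 and 18 among all genes of its library, with between 1698 and 2393 FPKM. Of the T cell receptor constant genes, Trac had between 1374 and 2013 FPKM (BM-Treg) or between 1318 and 1617 FPKM (SP-Treg). Trbc2 had between 1724 and 2115 FPKM (BM-Treg) or between 1511 and 1720 FPKM (SP-Treg). Trbc1 was lower, with between 463 and 553 FPKM (BM-Treg) or between 336 and 485 FPKM (SP-Treg).

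Both forms of Ighm had counts in every library. Of the gene's expected counts, the secreted transcript held 74.2%, 73.4%, 76.3% and 72.9% in BM-Treg replicates 1 to 4, and 67.5%, 77.9%, 77.9% and 70.0% in SP-Treg replicates 1 to 4. The SP-Treg libraries lay on both sides of the BM-Treg range. The means were 74.2 ± 1.54% and 73.3 ± 5.37% (SD, n = 4 each), a difference smaller than the spread between the SP-Treg libraries. These shares are estimates, since reads upstream of the ends printed above belong to both forms. For each of the other heavy chain genes and for the light chains the tables hold 1 transcript, so that secreted and membrane forms of IgG and IgA were not separated. The Ighg2c transcript is the membrane form, the others the secreted one, and Ighg2c FPKM is divided by that longer length.

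The genes downstream of Ighm were near 0 in BM-Treg and far higher in SP-Treg. Ighg1 had 0, 0.233, 0.180 and 0 CPM in BM-Treg replicates 1 to 4, against 7.09, 45.3, 20.3 and 58.8 CPM in SP-Treg replicates 1 to 4. Ighg2b had 0, 0.0466, 0 and 0.168 CPM in BM-Treg and 6.85, 106, 18.6 and 18.5 CPM in SP-Treg. Ighg2c had 0.0541, 0.0932, 0.0899 and 0.168 CPM in BM-Treg and 3.93, 66.2, 33.8 and 42.7 CPM in SP-Treg. For each of these 3 subclasses the lowest SP-Treg library, replicate 1, was far above the highest BM-Treg library.

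In BM-Treg these values rest on 9 expected counts for Ighg1, 3 for Ighg2b and 7 for Ighg2c over all 4 libraries together, against 1728, 1916 and 1889 in SP-Treg. On summed counts, scaled by library size, Ighg1 was 272-fold higher in SP-Treg, with an exact 95% interval of 143 to 595. The ratio was 904-fold (309 to 4386) for Ighg2b and 382-fold (185 to 951) for Ighg2c. The intervals cover counting error only. The fitted log2 fold changes (BM-Treg over SP-Treg) were -8.03 (SE 1.07), -9.61 (SE 1.66) and -8.50 (SE 1.24), and they depend on the prior count at such low levels.

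Ighg3, the first constant gene after Ighm of those in the tables, had 0.108, 2.56, 0.899 and 0.168 CPM in BM-Treg and 8.17, 265, 71.3 and 17.996 CPM in SP-Treg. Again no library of one tissue overlapped the other, but BM-Treg replicate 2, with 55.0 counts, and replicate 3, with 20, were above the 3-count limit. The summed ratio was 82.1-fold (65.7 to 104), and the fitted log2 fold change -6.47 (SE 1.57). Igha, the last gene of the row, behaved differently at the low end: it had 1.84, 2.52, 0.719 and 1.17 CPM in BM-Treg and 2.39, 71.6, 24.2 and 9.28 CPM in SP-Treg. SP-Treg replicate 1 lay within the BM-Treg range, and the other SP-Treg libraries above it. The summed ratio for Igha was 16.3-fold (13.5 to 19.9), and its log2 fold change -4.10 (SE 1.15). Without SP-Treg replicate 2 the log2 fold change was -2.93. The SP-Treg mean of Igha was 17.2-fold that of BM-Treg with that library and 7.66-fold without it.

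**Figure D1:**
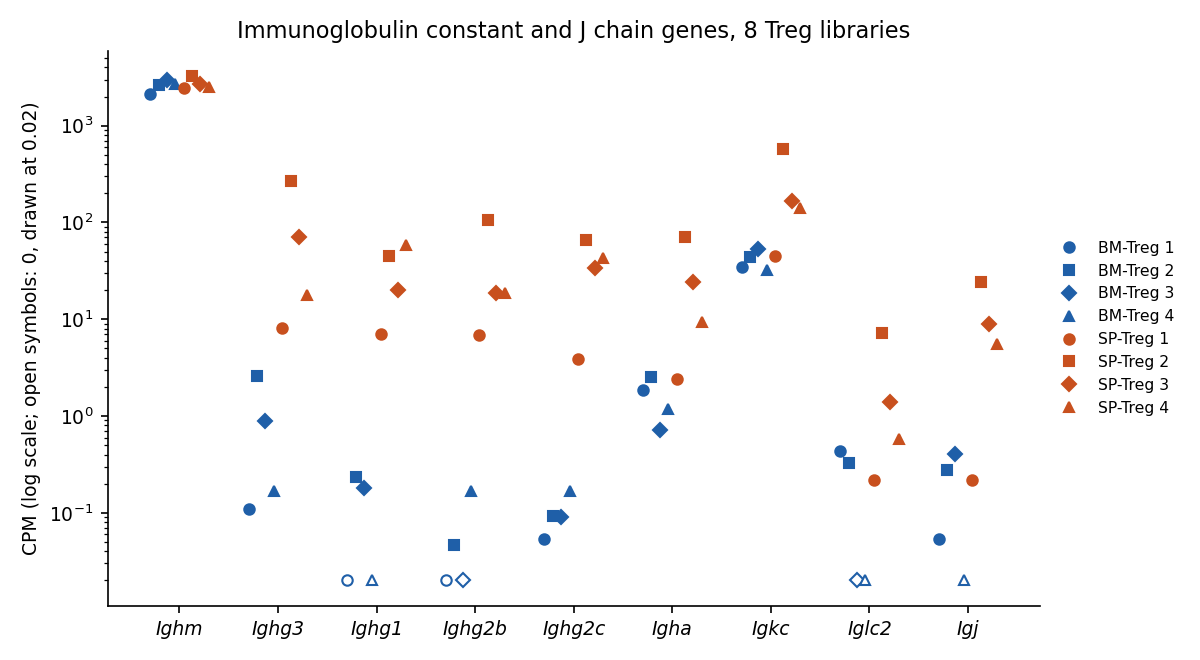
Level of each member in each library, in CPM on a log axis. BM-Treg libraries are blue, SP-Treg libraries orange, and symbols mark the replicate number. Each point is 1 library, and open symbols at the bottom are libraries at 0. Ighm overlaps between the tissues, the 4 IgG genes do not, and for Igha, Igkc, Iglc2 and Igj SP-Treg replicate 1 lies within the BM-Treg range.

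Of the 9 members, 7 passed the expression filter, the IgG genes through their level in SP-Treg alone. Of the 7, 3 were called lower in BM-Treg (Ighg1, Ighg2b and Ighg2c), beside 5.02% of all 13397 genes tested called in that direction and 8.75% called in either. In 4 members, the IgG genes, every BM-Treg library lay below every SP-Treg library, beside 7.67% of all genes tested. The median log2 fold change was -6.47 over the 7 members and -0.01 over all genes tested. These counts restate what the set was chosen on. Without SP-Treg replicate 2 the count of called members was also 3, and that library did not decide the order of the IgG genes: the mean over the other SP-Treg replicates was 278-fold (Ighg1), 274-fold (Ighg2b), 265-fold (Ighg2c) and 34.8-fold (Ighg3) the BM-Treg mean. For Ighg2b the ratio of means was 699-fold with it, and for Ighg3 97.1-fold. Within batch 3, where BM-Treg replicate 4 is the only BM-Treg library, the log2 fold changes were -11.73 (Ighg1), -7.72 (Ighg2b), -7.69 (Ighg2c), -8.99 (Ighg3), -4.50 (Igha) and -0.01 (Ighm). That library had 0 counts of Ighg1 and 2 each of Ighg2b, Ighg2c and Ighg3. The sizes for the IgG genes therefore depend on the prior count.

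The balance between IgM and the switched isotypes was set out within each library, as the percent of the summed FPKM of the 6 heavy chain genes. Ighm made up 99.9%, 99.7%, 99.9% and 99.9% in BM-Treg replicates 1 to 4. In SP-Treg replicates 1 to 4 it made up 98.4%, 81.0%, 92.1% and 92.6%. All SP-Treg libraries were below all BM-Treg libraries, and SP-Treg replicate 2 was the farthest from them. The mean share was 99.9 ± 0.0957% in BM-Treg and 91.1 ± 7.27% in SP-Treg (SD, n = 4 each). Without SP-Treg replicate 2 the SP-Treg mean was 94.4%.

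On the log2 scale, with 0.1 added to both sums, the ratio of switched to IgM FPKM was -9.53, -8.42, -10.09 and -10.14 in BM-Treg and -5.96, -2.10, -3.55 and -3.65 in SP-Treg. The groups do not overlap, and the nearest pair, BM-Treg replicate 2 and SP-Treg replicate 1, is 2.45 apart. The difference of the means was -5.73, and -5.16 without SP-Treg replicate 2. The change lay on the side of the switched genes: their summed FPKM was between 1.67 and 6.07 in BM-Treg and 32.2, 560.0, 164 and 149 in SP-Treg replicates 1 to 4, while Ighm FPKM overlapped between the tissues.

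**Figure D2:**
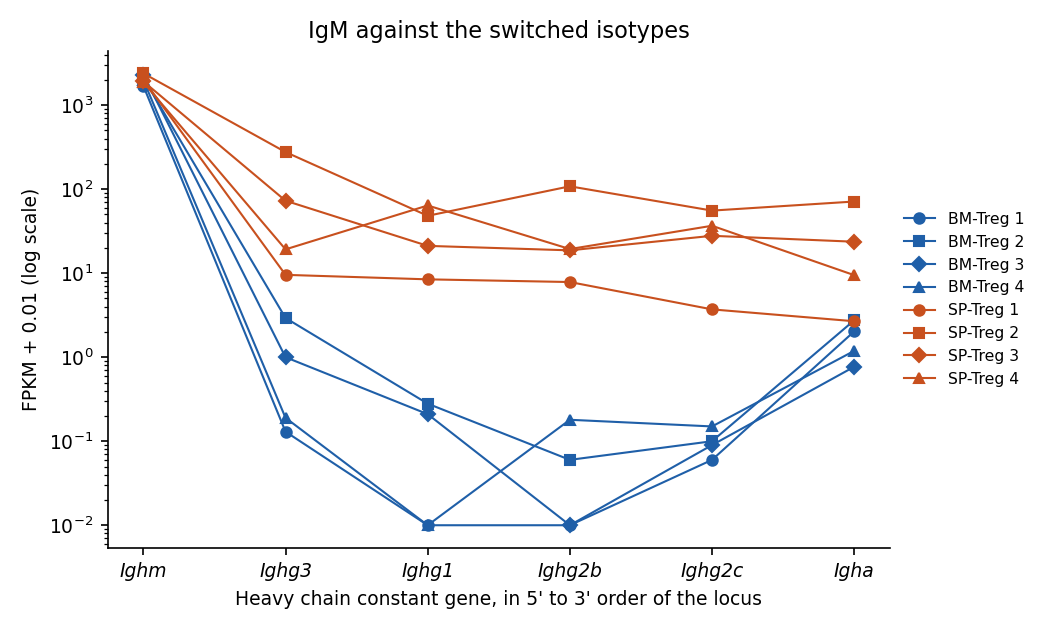
FPKM of the heavy chain constant genes, in the order of the locus from Ighm to Igha, with 0.01 added and on a log axis. Each line is 1 library, blue for BM-Treg and orange for SP-Treg. The lines meet at Ighm and part at the 4 IgG genes, and SP-Treg replicate 1 meets BM-Treg replicate 2 again at Igha, with 2.67 and 2.74 FPKM.

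The mix of switched isotypes differed between the SP-Treg libraries. Ighg3 led in replicates 1, 2 and 3, with 29.7%, 49.4% and 44.4% of the switched FPKM. In replicate 4 it made up 12.9%, and Ighg1 led with 43.0%. The share of Ighg1 in the others was 26.2%, 8.61% and 12.9%. Ighg2b made up between 11.4% and 24.3%, Ighg2c between 9.93% and 24.7%, and Igha between 6.37% and 14.4% in SP-Treg. No order of the subclasses was shared by the 4 SP-Treg libraries. In BM-Treg, Igha was the largest or the second largest part, with between 37.4% and 92.2%, out of sums under 7 FPKM. Igha in BM-Treg rests on between 14.0 and 54.0 counts per library.

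**Figure D3:**
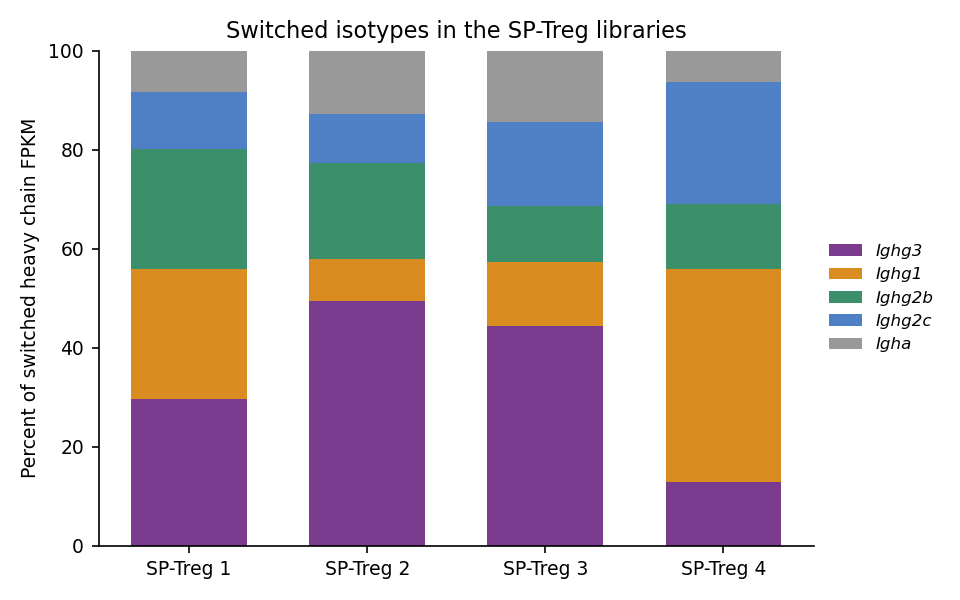
Percent of the summed FPKM of the 5 switched heavy chain genes held by each of them, in the 4 SP-Treg libraries. Each bar is 1 library and sums to 100%. Ighg3 is the largest part in replicates 1, 2 and 3, with 29.7%, 49.4% and 44.4%, and Ighg1 in replicate 4, with 43.0%.

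Ighe, the constant gene of IgE between Ighg2c and Igha, is no member but had a row of its own. It had 0 counts in each BM-Treg library and 5, 3, 36 and 5 counts in SP-Treg replicates 1 to 4. That is 0.362, 0.237, 2.98 and 0.362 CPM, and only replicate 3 was well above the 3-count limit.

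Light chain transcripts were far fewer than Ighm in most libraries. Igkc had 34.6, 44.2, 53.5 and 32.0 CPM in BM-Treg and 44.8, 578, 169 and 142 CPM in SP-Treg replicates 1 to 4. SP-Treg replicate 1 lay inside the BM-Treg range, and the other SP-Treg libraries above it. The log2 fold change was -2.53 (SE 0.79), and within batch 3 it was -2.86. The mean over SP-Treg was 5.68-fold that of BM-Treg, and 2.89-fold without SP-Treg replicate 2. In FPKM, Ighm was 11.6, 11.4, 10.6 and 15.95 times Igkc in BM-Treg, and 10.3, 1.07, 2.99 and 3.32 times Igkc in SP-Treg replicates 1 to 4.

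Iglc2 was low throughout and did not pass the expression filter. It had 0.433, 0.326, 0 and 0 CPM in BM-Treg and 0.217, 7.27, 1.41 and 0.580 CPM in SP-Treg, with overlapping ranges. Kappa made up at least 99.4% of the summed FPKM of Igkc and Iglc2 in each library. Lambda constant genes other than Iglc2 were not in that sum, so that the share of kappa among all light chains is uncertain. The same sum per 100 FPKM of heavy chain was between 6.26 and 9.40 in BM-Treg. It was 9.54, 76.3, 30.9 and 28.0 in SP-Treg replicates 1 to 4. The mean was 8.28 ± 1.38 in BM-Treg and 36.2 ± 28.4 in SP-Treg (SD, n = 4 each), and 22.8 in SP-Treg without replicate 2. The groups did not overlap, but SP-Treg replicate 1 was only just above BM-Treg replicate 3, which had the 9.40.

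Igj did not pass the filter either. It had 0.0541, 0.279, 0.405 and 0 CPM in BM-Treg and 0.217, 24.4, 8.85 and 5.58 CPM in SP-Treg. Again SP-Treg replicate 1, with 3 counts, was inside the BM-Treg range, and the other SP-Treg libraries had between 77.0 and 309 counts. Relative to Igkc, Igj had 0.0924 FPKM per 100 in SP-Treg replicate 1 and 0.807, 0.980 and 0.746 in replicates 2 to 4. In BM-Treg this value was between 0 and 0.142. By contrast, the switched heavy chains had 16.5 FPKM per 100 of Igkc in SP-Treg replicate 1, closer to the 25.0, 25.6 and 26.3 of replicates 2 to 4 than to the BM-Treg libraries, which had between 0.931 and 3.27. SP-Treg replicate 1 thus combined IgG levels above all BM-Treg libraries with Igha, Igkc, Iglc2 and Igj levels inside the BM-Treg range.

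**Figure D4:**
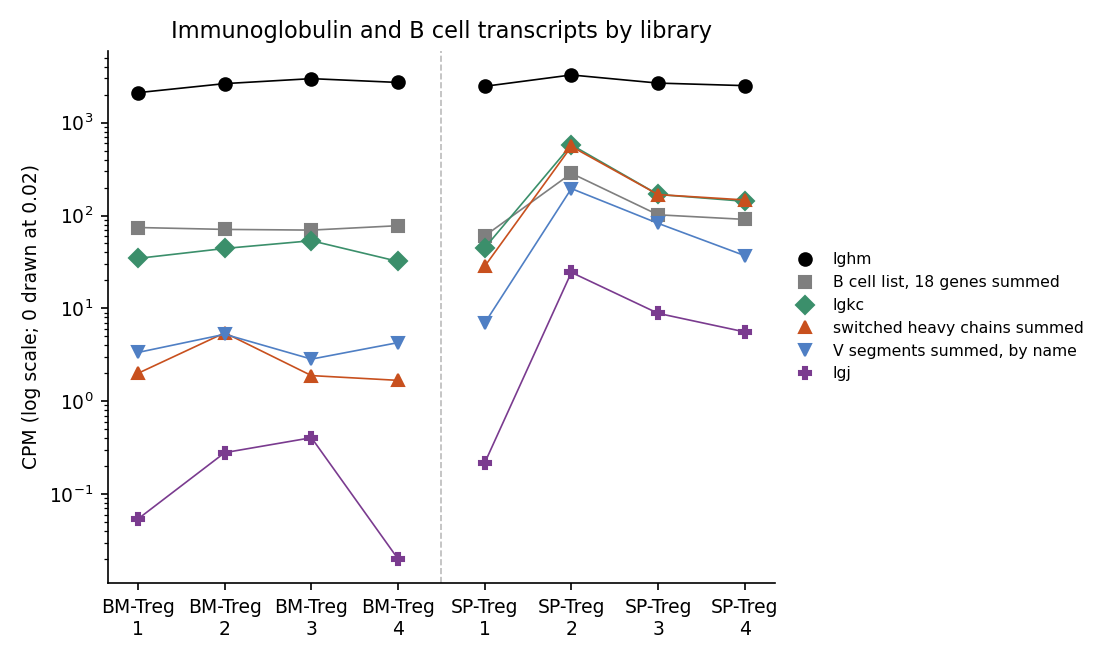
Levels in CPM on a log axis by library, for Ighm, Igkc, Igj, the sum of the 5 switched heavy chain genes, the sum of the V segment rows by name, and the sum of the 18 genes on the B cell list. Lines join libraries of a tissue only to guide the eye, since replicates have no order. Ighm lies between 2107 and 3267 CPM across all 8 libraries, and the other quantities are highest in SP-Treg replicate 2.

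V segment rows, which count reads on variable region genes, joined or not, are no members and were scarce beside Ighm. A joined V segment lies on the same transcript as its constant region. These rows are therefore not independent of the choice of members, and their fits are read as descriptions. The tables name 32 Ighv, 59 Igkv and 3 Iglv rows. The Ighv rows summed to 2.76, 2.24, 2.26 and 3.02 CPM in BM-Treg and 2.31, 25.2, 19.3 and 8.08 CPM in SP-Treg replicates 1 to 4. Per 1000 CPM of Ighm this is between 0.757 and 1.31 CPM in BM-Treg, and 0.939, 7.72, 7.23 and 3.22 CPM in SP-Treg. With the rows added that are Ighv genes in GENCODE M21 but carry clone names in the tables, it was between 1.39 and 2.85 CPM in BM-Treg and 3.31, 47.9, 23.3 and 17.8 CPM in SP-Treg. In both counts SP-Treg replicate 1 stood nearer to the BM-Treg libraries than to the other SP-Treg libraries. A V read can be lost where the variable region is mutated or joined, and the share lost was not tested.

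The Igkv rows summed to 0.379, 2.52, 0.360 and 0.587 CPM in BM-Treg and 4.12, 162, 55.9 and 25.0 CPM in SP-Treg. The groups did not overlap. Summed per locus and fitted beside all genes with edgeR, Ighv had a log2 fold change of -2.44 (SE 0.66, adjusted p = 0.0612). Igkv had one of -5.95 (SE 1.40). Neither sum was called at the threshold of 0.05. The Igkv sum passed the filter only through the SP-Treg libraries, so its fold change is a description. Of the single rows, 3 by name passed the filter (Ighv6-3, Igkv12-98 and Igkv12-46) and edgeR called 0. Limma-voom called 1, DESeq2 called 0, and 1 had an unadjusted p below 0.05 in edgeR. Among the 6 rows tested by name or identifier, 2 were called lower in BM-Treg, both named by the added identifiers, after their values had been seen. Ighv1-9 had 0, 5, 0 and 0 counts in BM-Treg and 12, 71, 27 and 22 in SP-Treg. Igkv6-23 had 1, 0, 2 and 0 counts in BM-Treg and between 10.02 and 37 in SP-Treg. Both passed the filter on low counts only through the SP-Treg libraries, so their calls are a description. Without SP-Treg replicate 1, 12 V rows by name passed the filter and 8 were called. With 1 library left out the filter asks for fewer libraries. Rows near 0 in BM-Treg can then pass through the remaining SP-Treg libraries, so these calls are a description too.

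Among the kappa V rows with the highest means, Igkv6-32 had 23.4, 3.97 and 0.942 CPM in SP-Treg replicates 2, 3 and 4, while Igkv5-39 had 17.5, 9.84 and 1.16 CPM there, so that the order of V rows varied between libraries. Ighv6-3 had the highest mean of the Ighv rows and was the only one above 1 CPM in each BM-Treg library, with between 1.58 and 2.11 CPM. Iglv1, the most abundant lambda row, had between 0.108 and 0.570 CPM in BM-Treg and between 0.506 and 6.36 CPM in SP-Treg. The heavy chain J segment rows Ighj1 to Ighj4 had at most 6 counts in a library. Igll1, the surrogate light chain of B cell precursors, had no count in any library, and Vpreb1, its partner, had at most 8.

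Markers of B cells and plasma cells moved with the members in part, and their share in the results was not tested. All 18 genes on the B cell list were in the tables, and their sum was between 69.7 and 77.7 CPM in BM-Treg and 60.3, 285, 102 and 90.9 CPM in SP-Treg replicates 1 to 4. Cd79a, which carries the signal of the B cell receptor, had 28.6 CPM in SP-Treg replicate 2. In SP-Treg replicate 1 it had 1.88 CPM, against between 1.43 and 3.33 CPM in BM-Treg. Ms4a1 (CD20) was at 13.9 CPM in SP-Treg replicate 2 and at or below 1.65 CPM in the others. In SP-Treg replicate 1 most of the sum came from H2-Ob (24.1 CPM) and Cd72 (13.7 CPM). The library was above every BM-Treg library for Cd22 (6.72 CPM, against at most 6.15), Ebf1 (1.45 CPM, against at most 1.38), Fcer2a (1.59 CPM, against at most 1.44) and Fcmr (2.17 CPM, against at most 2.07). Of the 14 genes tested on this list, 1 was called, lower in BM-Treg: Ebf1, a transcription factor of early B cells, with a log2 fold change of -2.42 (SE 0.62, edgeR adjusted p = 0.0332). It was called in 3 of the 8 fits that left out 1 library, and without SP-Treg replicate 2 its adjusted p was 0.0981. Cd22, an inhibitory receptor of B cells, was called lower in BM-Treg without that library (edgeR adjusted p = 0.0491) but not with it (adjusted p = 0.114). The median log2 fold change of the list was -1.78 with that library and -0.29 without it.

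On the plasma cell list, all 15 genes were in the tables and 10 were tested. Defining genes were low. Sdc1 (CD138) had at most 0.0932 CPM in BM-Treg and between 0.372 and 0.580 CPM in SP-Treg, without overlap but on at most 8 counts. Mzb1 had 0, 4, 0 and 0 counts in BM-Treg and 0, 18, 3 and 14 in SP-Treg. Fkbp11 overlapped, with at most 11 counts in BM-Treg and at most 4 in SP-Treg. Tnfrsf17 was at 0 in all libraries but SP-Treg replicate 3, which had 0.248 CPM. Pou2af1, a coactivator of immunoglobulin transcription, had between 4.54 and 11.5 CPM in BM-Treg and 9.40, 72.7, 21.8 and 19.7 CPM in SP-Treg (edgeR adjusted p = 0.141). Irf4, which T cells also express, was lower in BM-Treg, with a mean of 137 ± 14.2 CPM against 299 ± 64.2 CPM (SD, n = 4 each; log2 fold change -1.14, edgeR adjusted p = 0.000392). Creld2, a protein of the endoplasmic reticulum, was lower too (log2 fold change -0.89, adjusted p = 0.0123). The median of the list was -0.16. Prdm1 and Xbp1, which drive secretion in plasma cells and are also used by Treg, had log2 fold changes of 0.00 (SE 0.15) and -0.13 (SE 0.12).

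Of the 9 genes on the list of B cell precursors, 2 were tested and 1 was called: Il7r, the receptor for a growth factor of B and T cells, was higher in BM-Treg (log2 fold change 0.82, SE 0.14, edgeR adjusted p = 0.00218). Igll1 was at 0 in all libraries, and Rag1, Vpreb1, Vpreb2, Vpreb3 and Dntt were below 1 CPM in each.

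Of the 12 genes of class switching and end joining, all were tested and 2 were called, both lower in BM-Treg. With any 1 library left out, 1 was called. Ung, which removes uracil from DNA, had a mean of 4.25 ± 1.01 CPM in BM-Treg, against 15.0 ± 6.37 CPM in the spleen (SD, n = 4 each; log2 fold change -1.84, SE 0.28, edgeR adjusted p = 0.00172). The median of the list was -0.24.

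Of 12 receptors for immunoglobulin, 3 were tested. Trim21 had between 53.9 and 86.5 CPM, and the others were below 5 CPM in each library. Trim21, an intracellular receptor for the constant part of IgG, was called (log2 fold change -0.38, SE 0.11, edgeR adjusted p = 0.0448). It was not called without SP-Treg replicate 2 (adjusted p = 0.0996), and was called in 2 of the 8 fits that left out 1 library. Fcer1g, a signalling chain of several of these receptors, was called higher in BM-Treg without SP-Treg replicate 2 alone (edgeR adjusted p = 0.0388). Fcer1a was at 0 in all libraries, and Fcgr1, Fcgr3, Fcgr4, Pigr and Fcamr were below 1 CPM in each. With batch as a term in the fit, Irf4 was the only one of the called genes named from these lists that was called again (adjusted p = 0.0274), and the other adjusted p-values were 0.0706 (Il7r), 0.0741 (Trim21), 0.105 (Ung), 0.312 (Ebf1) and 0.401 (Creld2).

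With all libraries, edgeR called 0 genes on the lists for other cell types. Without SP-Treg replicate 1 it called 5 of the 6 erythroid genes tested and 1 of the 3 neutrophil genes tested (Ngp), all lower in BM-Treg, and it called 0 with any other single library left out. The pDC list summed to between 188 and 223 CPM in BM-Treg and between 180 and 234 CPM in SP-Treg (5 genes tested, 0 at an unadjusted p below 0.05, 0 called by DESeq2). The neutrophil list summed to between 1.35 and 10.7 and between 0.217 and 19.0 CPM (2 tested, 1 at an unadjusted p below 0.05, 1 called by DESeq2), and the monocyte and macrophage list to between 139 and 246 and between 97.2 and 151 CPM (4 tested, 1 and 1). On the erythroid list all 6 genes tested had an unadjusted p below 0.05, and DESeq2 called 3. Their median log2 fold change was -3.46.

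The genes outside the immunoglobulin loci whose log2 CPM was most like that of Ighm over the 8 libraries, among 12808 with a mean of at least 1 CPM, were Trbv2 (Pearson r = 0.958), RP23-190G10.4 (0.941), Ccdc173 (0.924), Hsf1 (0.924) and Gm6275 (0.923). Trbv2 is a V segment of the T cell receptor beta chain. The genes most like the summed switched CPM were Rnf113a1 (0.986), 6720456H20Rik (0.986), Ralgps2 (0.983), Shank1 (0.971) and Tfg (0.967). These correlations are descriptions over 8 libraries that share tissue and batch. None of the 10 was on the B cell list. The switched sum separates the tissues, so that a gene higher in SP-Treg ranks high against it for that alone.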

How the data were processed

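RNA of FACS-isolated FoxP3+ cells was amplified by SPIA (NuGEN) and read single-end at 80 nt. The submitters' processing notes name cutadapt 1.9, STAR 2.5.2a and RSEM 1.2.30 and the build GRCm38, with no order given. The authors deposited expected counts per gene and per transcript without normalization, and FPKM, in which counts are divided by transcript length and depth. Here 0 columns were left unmatched. Members and lists were chosen with earlier results of these data known. Genes to be named were, by a written rule, all members, other constant and surrogate rows, the 5 highest V rows per locus, up to 5 called and the 4 highest genes per list, and the 5 genes most like Ighm and the switched sum; of these the text names a part, and some genes on the lists are not reported here.

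Expected counts were rounded. Of 38215 genes, 13397 passed edgeR's default filter and were tested by quasi-likelihood (robust, TMM, Benjamini-Hochberg threshold 0.05, no covariate), with edgeR 4.0.16, limma 3.58.1 and DESeq2 1.42.0 in R 4.3.3. SE is the log2 fold change over the root of F. CPM used TMM library sizes over all genes, and likeness log2 CPM with a prior count of 2. Summed-count ratios carry exact binomial 95% intervals. Depth was 12427136 to 21921252 counts per library, and cDNA was amplified without molecular identifiers, so intervals and the limit of 3 counts cover counting error only. No pair of the 28 library pairs was identical. The labels do not say whether replicates came from separate mice, while the study's methods call them biological. The tests were tried on simulated counts. The alternatives are given in the closing section. Sequences are GENCODE M21.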

Additional observations from a re-analysis of the deposited data

Results flagged for a closer look

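In 2 members SP-Treg replicate 2 lay far from the other SP-Treg replicates by Dixon's test, in which the gap to the nearest library is divided by the range of the group. Ighg2b was at 106 CPM there and between 6.85 and 18.6 CPM in the others. Iglc2 was at 7.27 CPM there and between 0.217 and 1.41 CPM in the others. Members, ratios and the secreted share of Ighm were examined in both tissues, 30 groups in all, and chance flags about 1 in 20 groups.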

How the results depend on the processing

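No setting turned the direction of an IgG gene, Igha or Igkc. The log2 fold changes lay between -12.04 and -4.69 (Ighg1), -10.64 and -4.57 (Ighg2b), -8.87 and -4.41 (Ighg2c), -9.03 and -4.67 (Ighg3), -4.52 and -2.66 (Igha) and -2.88 and -1.55 (Igkc), and that of Ighm between -0.14 and 0.02. The median over members, -6.47, was -2.50 with at least 10 counts in every library, where fewer members were tested, -7.72 with a batch term, -4.41 on log2(FPKM + 1), and between -7.67 and -5.01 with 1 library left out (lowest without BM-Treg replicate 2, highest without SP-Treg replicate 2). The 1172 genes called became 258 with a batch term, 79 in batch 3 alone (where the lone BM-Treg library is assumed to vary like SP-Treg), 765 on log2(FPKM + 1), 728 on log2(FPKM + 0.1), and between 690 (without BM-Treg replicate 2) and 1048 with 1 library left out. Of the genes on the B cell, precursor and plasma cell lists 4 were called, 9 by DESeq2, 1 with a batch term and 0 in batch 3 alone. Of V rows by name 0 were called, but 1 on log2(FPKM + 1), 1 by limma-voom and 15 with no filter beyond 1 count. With rows named by identifier (chosen after seeing the data) 2 were called. With 1 library left out, between 0 and 8 were called (8 without SP-Treg replicate 1). The filter then asks for fewer libraries, so that these counts are a description. The switched to IgM log2 ratio differed by -7.11 without Igha, and light chain per 100 heavy chain by -5.54 in CPM, which is not divided by length, against -27.9 in FPKM. The shifts of these ratios come with the change of measure, and the cause of the other shifts was not tested.

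Replicate numbers did not pair the libraries: same-numbered BM-Treg and SP-Treg libraries deviated together with correlations of -0.107, 0.060, -0.176 and 0.040. With the replicate number as a block 948 genes and 1 V row were called, and the median over members was -6.55. Depth limits the IgG genes in BM-Treg, which had between 3 and 63 counts per library together.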
